A study of Mus musculus with 11 samples.

Results

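The hippocampus 1 month after a cortical stroke was set against the hippocampus of naive mice, by CAGE (cap analysis of gene expression, a count of reads from the capped 5′ ends of RNA). The comparison takes 3 of the study's 11 libraries, chosen by their labels. They were the infarcted-side library of mice 1 m after photothrombosis (PT), the non-infarcted-side library of the same condition, and the library labelled naive, from mice without PT. None of these 3 groups was given levetiracetam (LEV), the anti-seizure drug of other libraries in the study. All were C57BL/6N male mice, and each library was made from whole hippocampus. In PT the dye rose bengal (35 mg/kg) was injected into the peritoneum, and an LED (565 nm, 200 mW, 30 min) lit a circle of 3.5 mm over the left parietal lobe. The lesion is therefore in the cortex above the hippocampus on one side, and the hippocampus on the other side lies across the midline from it. Each group had 1 library. How many animals a library held, whether both sides were taken from shared animals, and which of the study's ages (8 to 10 or 65 to 85 weeks) applied to each are not stated in the labels. Age and PT therefore cannot be told apart here, and neither can differences between animals and PT.

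Photothrombosis makes a sharply bounded infarct, because light acting on the circulating dye clots the vessels under the lit spot. Tissue away from the infarct can react through loss of its cortical partners, inflammation, and hormones in the blood. The hippocampus has many receptors for glucocorticoids, the stress hormones of the adrenal gland, which switch on target genes such as Sgk1, Fkbp5 and Tsc22d3 through the glucocorticoid receptor. The choroid plexus, an epithelium that makes cerebrospinal fluid, lies in the ventricle along the hippocampus and can come along when the tissue is dissected.

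By totals recovered from the CPM values, the libraries held 13382623 reads for the infarcted side, 13940220 for the non-infarcted side and 14003626 for naive. Totals of the 11 libraries ran up to 22377376. Values are CPM (counts per gene relative to all reads of that library), and differences are of log2(CPM + 1), PT minus naive, for the 16057 genes with a mean of at least 1 CPM over the 11 libraries. A gene with 0 reads could have a true level of up to 3 reads, equal to 0.224 CPM on the infarcted side, 0.215 CPM on the non-infarcted side and 0.214 CPM in naive. Markers of CA pyramidal cells and dentate granule cells, the main neurons of the hippocampus, were present at 1 CPM or more in all 3 libraries for 28 of 28 genes tested. Prox1, the transcription factor of granule cells, stood at 59.5 CPM on the infarcted side, 56.9 CPM on the non-infarcted side and 56.9 CPM in naive.

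Across the whole set of genes, both PT 1 m libraries lay close to naive. The median difference was 0.02 on the infarcted and -0.00 on the non-infarcted side, and 94.6% (infarcted) and 94.0% (non-infarcted) of genes lay within 0.5 of naive, against 96.2% between the sides. The standard deviation over genes was 0.282 on the infarcted and 0.253 on the non-infarcted side, while in the other 8 PT libraries it ran from 0.324 to 0.467. The genes that did differ were mostly lower than in naive. On both sides 41 genes were lower by at least 1 on the log2 scale (0.255% of tested genes) and 1 was higher (0.00623%). A gene past that size on the infarcted side and under 0.5 on the other was lower in 19 cases (0.118%) and higher in 9 (0.0561%). With no condition on the other side, 111 genes were lower (0.691%) and 13 higher (0.081%) on the infarcted side, and 72 lower (0.448%) and 16 higher (0.0996%) on the non-infarcted side. The one-sided rule with the sides exchanged gave 2 genes lower (0.0125%) and 8 higher (0.0498%). Both sides are measured against the same naive library, so a deviation of that library alone enters both differences. In tissue of many cell types, fewer cells of a type and less RNA per cell cannot be told apart.

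**Figure D1:**
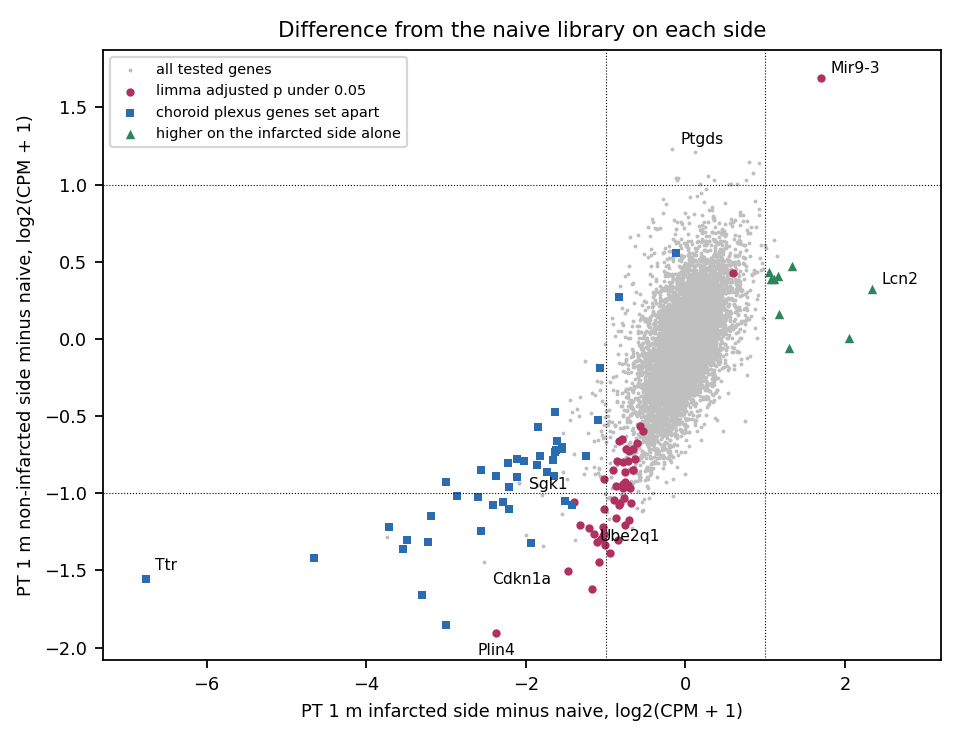
Each point is a gene, with its log2(CPM + 1) difference from naive on the infarcted side along the horizontal axis and on the non-infarcted side along the vertical axis (dotted lines at 1 and -1). Choroid plexus genes (squares) reach -6.76 on the infarcted side, and Mir9-3 is the gene higher by more than 1 on both sides. Genes called by limma (red points) lie near the diagonal, which the test favours because the sides are its spread.

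To set a spread beside these differences, limma was fitted over all 11 libraries in 6 conditions, with the sides of each PT condition as its values (5 residual degrees of freedom). The naive condition had 1 library, assumed to vary like the others, and the p-values measure the spread between sides, not between animals. By this test 50 genes were lower at PT 1 m than in naive (0.311% of tested genes) and 2 were higher (0.0125%), at a Benjamini-Hochberg adjusted p under 0.05. All 50 were also called lower by edgeR and by DESeq2, which used the same libraries and conditions, the 1 naive library included, and so are not independent of limma. None of the 50 was among the choroid plexus genes set apart below, whose differences between sides enter the spread of this fit. Of the 41 genes lower by at least 1 on both sides, 18 were choroid plexus genes, and 15 of the remaining 23 were called by limma. Just inside that size stood Spag16, an axoneme protein of cilia, at -1.01 on both sides, and just outside stood Slc25a28, an iron carrier of mitochondria, at -0.94 on the infarcted and -1.39 on the non-infarcted side. For 44 of the 50 called genes the naive library lay above all 10 PT libraries, those at 7 d and with LEV included, against 8.69% of all tested genes. For 3 of them, Cdkn1a, Sgk1 and Arrdc2, the PT 1 m pair lay below all 9 other libraries, against 2.17% of all tested genes. A call itself rests on naive standing above the PT 1 m pair. Both counts are therefore favoured by the choice of genes and are a description. The PT libraries did not share a level. Ube2q1 stood at 158 CPM in naive, and at 118 CPM (infarcted) and 108 CPM (non-infarcted) in PT 1 m with LEV. At PT 1 m it stood at 67.6 CPM (infarcted) and 66.9 CPM (non-infarcted). In the 7 d and 2 m libraries it held 38.1 to 49.9 CPM, so PT 1 m lay between these and naive. Mosmo had the same order, Plin4 and Sgk1 did not, and how many of the 50 did was not counted.

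Plin4, Sgk1, Cdkn1a and Tsc22d3, genes that glucocorticoids switch on, fell at PT 1 m. The list of such genes and the metallothioneins had 16 members, all tested, of which 4 fell by limma (25% of the list, against 0.311% of all tested genes) and 0 rose. Of the 16, 13 lay below naive on both sides, where 32.9% of all tested genes did. Lower by at least 0.5 on both sides were 6 of the 16, and 1.76% of all tested genes. The list's median was -0.48 on the infarcted and -0.43 on the non-infarcted side. The list was written with earlier results of these data known, so these counts are a description.

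Plin4, perilipin 4 of the lipid droplet coat (GRCm38 chromosome 17, 56100591 to 56109803), had the lowest limma difference among the called genes. It stood at 4.26 CPM on the infarcted side (95% exact Poisson interval 3.23 to 5.52) and 6.31 CPM on the non-infarcted side (5.06 to 7.78), against 26.4 CPM in naive (23.7 to 29.2). The other 8 PT libraries held 4.31 to 7.54 CPM, so every PT library was low and naive alone was high. Plin4 fell by 2.14 on the log2 scale (SE 0.243, limma adjusted p = 0.00368). Sgk1, the serum- and glucocorticoid-regulated kinase (chromosome 10, 21882184 to 21999903), behaved differently in the other libraries. It stood at 39.2 CPM on the infarcted side (35.9 to 42.7) and 49.9 CPM on the non-infarcted side (46.3 to 53.8), against 105 CPM in naive (99.7 to 111). In the 4 PT 7 d libraries it stood at 104 to 140.5 CPM, and in the libraries of PT 1 m with LEV and of PT 2 m after LEV withdrawal at 60.2 to 66.8 CPM. Sgk1 therefore had its lowest levels of the series in the 2 PT 1 m libraries, and fell by 1.23 (SE 0.124, limma adjusted p = 0.00201). Cdkn1a, which encodes the cell-cycle inhibitor p21 (chromosome 17, 29090976 to 29100727), stood at 4.56 CPM on the infarcted side and 4.45 CPM on the non-infarcted side, against 14.4 CPM in naive and 5.35 to 10.5 CPM in the other 8 libraries. It fell by 1.49 (SE 0.217, limma adjusted p = 0.0127). Tsc22d3, the anti-inflammatory leucine zipper protein GILZ (chromosome X), stood at 39.6 CPM (infarcted) and 40.5 CPM (non-infarcted), against 67.0 CPM in naive, and fell by 0.73 (SE 0.102, limma adjusted p = 0.0105). Here the other 8 libraries spanned both levels, from 28.95 to 69.3 CPM.

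The rest of the list did not pass the test. Fkbp5, a co-chaperone of the glucocorticoid receptor and a standard target of it, stood at 44.8 CPM on the infarcted side and 41.0 CPM on the non-infarcted side, against 65.7 CPM in naive (limma adjusted p = 0.0775). Nfkbia, the inhibitor of NF-kappaB, stood at 11.4 CPM (infarcted) and 12.1 CPM (non-infarcted), against 18.6 CPM in naive. Ddit4, which restrains the growth kinase mTORC1, stood at 14.4 CPM (infarcted) and 15.6 CPM (non-infarcted), against 21.6 CPM in naive, with both PT 1 m values under all 9 other libraries. Klf9 and Zbtb16, transcription factors induced by glucocorticoids, gave mean differences of -0.41 and -0.41, and Errfi1, an inhibitor of the EGF receptor, -0.39. Per1, a clock gene that glucocorticoids also induce, gave -0.16. The metallothioneins Mt1, Mt2 and Mt3, which bind zinc and copper, lay at 0.06, 0.03 and 0.01. In the clock list, which also holds Per1, the median was 0.04 on the infarcted and -0.01 on the non-infarcted side with 0 genes called, and Dbp, a clock output gene, stood at 43.0 CPM (infarcted) and 38.1 CPM (non-infarcted), against 31.3 CPM in naive.

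**Figure D2:**
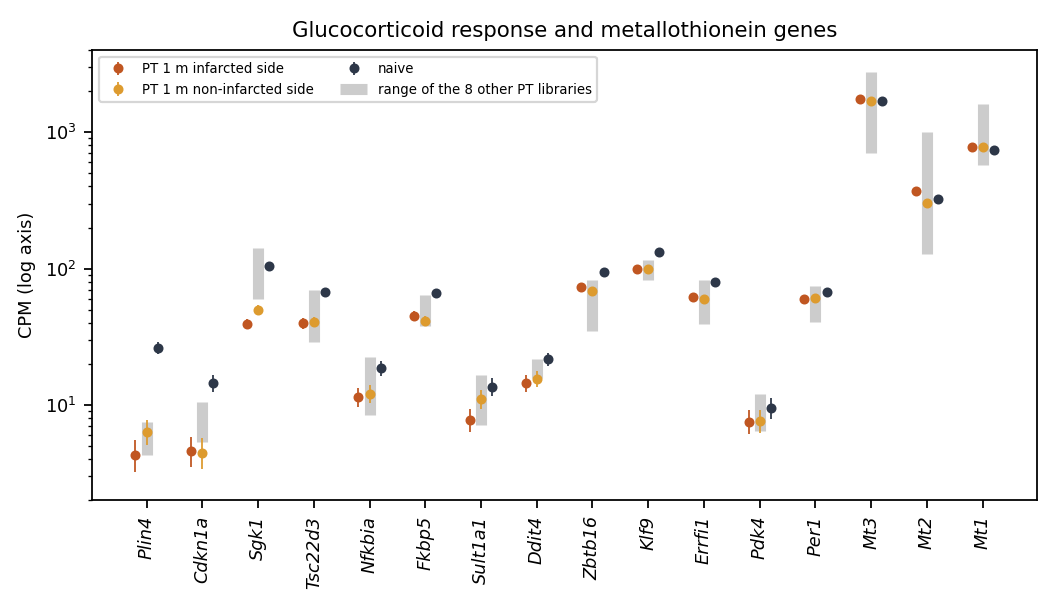
CPM on a log axis of the 16 genes of the glucocorticoid and metallothionein list, ordered by their mean difference, on the infarcted side, the non-infarcted side and in naive, with exact Poisson 95% intervals and grey bars for the range of the other 8 PT libraries. Plin4, Cdkn1a, Sgk1 and Tsc22d3 passed limma, and the metallothioneins on the right lie at the naive level.

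Outside that list, Hif3a, Arrdc2 and Cdr2 were also lower by at least 1 on both sides. Hif3a, a member of the hypoxia-inducible factor family, stood at 5.83 CPM on the infarcted side and 6.38 CPM on the non-infarcted side, against 16.1 CPM in naive and 4.25 to 9.66 CPM in the other PT libraries, and fell by 1.27 (limma adjusted p = 0.00761). Arrdc2, an arrestin-domain protein named after its values were seen, stood at 8.97 CPM (infarcted) and 8.46 CPM (non-infarcted), against 19.3 CPM in naive, and fell by 1.06 (limma adjusted p = 0.00761). Cdr2, an antigen of paraneoplastic cerebellar degeneration, stood at 5.90 CPM (infarcted) and 6.31 CPM (non-infarcted), against 17.1 CPM in naive, and did not pass (limma adjusted p = 0.0915). Of the 4 blood genes tested, 2 lay below naive on both sides and 2 above on both sides, and limma called 0. Their summed level, most of it from the globin Hbb-bs, was 42.97 CPM on the infarcted side and 64.4 CPM on the non-infarcted side, against 112 CPM in naive and 11.9 to 52.1 CPM elsewhere. The beta-globin genes Hbb-bs and Hbb-bt lay below naive, and the S100a8 and S100a9 genes of neutrophils above it. Whether blood content has a part in the glucocorticoid genes was not tested.

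CAGE reads start at promoters, so the promoter sequences of 3 of the lowest called genes are shown here, from RefSeq (GRCm38.p6), each from 250 bases before to 50 bases after the annotated start, 5′ to 3′ on the gene's strand. Capitals mark CG dinucleotides, the sites of DNA methylation that are dense in CpG-island promoters. Plin4 (chr17:56109733-56110032, minus strand) has 7 of them. Sap30l (chr11:57801387-57801686, plus strand), of a histone deacetylase complex, has 33, and Ube2q1 (chr3:89773359-89773658, plus strand), a ubiquitin-conjugating enzyme, has 44.
Plin4: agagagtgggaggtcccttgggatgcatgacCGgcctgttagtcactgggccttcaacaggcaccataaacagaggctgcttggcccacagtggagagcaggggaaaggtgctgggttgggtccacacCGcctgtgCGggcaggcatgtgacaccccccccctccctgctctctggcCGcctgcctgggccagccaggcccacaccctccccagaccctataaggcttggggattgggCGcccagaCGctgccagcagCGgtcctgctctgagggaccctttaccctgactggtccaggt
Sap30l: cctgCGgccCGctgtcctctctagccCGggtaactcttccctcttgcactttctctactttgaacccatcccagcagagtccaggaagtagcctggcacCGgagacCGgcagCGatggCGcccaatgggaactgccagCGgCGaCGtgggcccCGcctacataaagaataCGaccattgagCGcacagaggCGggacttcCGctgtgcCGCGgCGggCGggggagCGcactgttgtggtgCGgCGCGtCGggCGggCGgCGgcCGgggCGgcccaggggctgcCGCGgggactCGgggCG
Ube2q1: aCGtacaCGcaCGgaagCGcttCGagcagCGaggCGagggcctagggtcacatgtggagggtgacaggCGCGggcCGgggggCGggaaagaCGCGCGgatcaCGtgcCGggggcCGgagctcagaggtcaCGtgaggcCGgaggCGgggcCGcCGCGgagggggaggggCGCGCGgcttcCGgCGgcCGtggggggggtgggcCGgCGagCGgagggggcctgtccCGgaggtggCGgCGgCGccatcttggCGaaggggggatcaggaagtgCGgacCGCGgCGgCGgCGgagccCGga

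Most of the called genes with a window had promoters like those of Sap30l and Ube2q1, not like that of Plin4. Leaving out the 2 Zfp91 entries, which share their reads, 48 genes were called lower, and 30 had exactly 1 RefSeq window. Their median was 30 CG dinucleotides and 69.5% G or C, against 21 and 61.3% over the 9188 windows of all tested genes. At least 20 CG dinucleotides were found in 24 of the 30 (80%), against 55.4% of all windows. Among all windows with 30 or more CG dinucleotides, 15 of 2146 genes (0.699%) were called lower, against 9 of 2941 (0.306%) with 20 to 29, 3 of 2578 (0.116%) with 10 to 19, and 3 of 1523 (0.197%) with fewer. A lower level by at least 0.5 on both sides did not follow that order: it was found for 2.61% of genes with 30 or more, 1.19% with 20 to 29, 1.01% with 10 to 19 and 3.15% with fewer. The median level in naive also differed between these classes, at 35.6, 28.1, 20.7 and 6.71 CPM from the most to the fewest CG dinucleotides, and its part in the counts was not tested. The median difference over all genes was 0.00 on the infarcted and -0.05 on the non-infarcted side with 30 or more, and 0.02 (infarcted) and 0.01 (non-infarcted) with fewer than 10. Base composition can also change how well a fragment is amplified and sequenced, and its part in these calls was not tested. The 10 windows of the glucocorticoid list had a median of 19.5 CG dinucleotides. The consensus glucocorticoid response element (AGAACA, then 3 free bases, then TGTTCT), searched on both strands, was in 0 windows of the whole set. TGTTCT or its complement AGAACA, both contained in the full element, was in 12.3% of all windows, in 1 of the 30 (Dscam) and in 1 of the 10 (Sult1a1). The cAMP response element TGACGTCA was in 3.28% of all windows and in 1 of the 30, that of Purb. A motif missing from a window says only that these letters are not there.

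Outside the glucocorticoid list, the called genes are described by their known roles, in chromatin and transcription, in signalling, and in ubiquitin and membrane traffic. This grouping, and the genes named in this and the next paragraph other than Sap30l, Ube2q1, Mosmo and Clk2, were chosen after their values were seen. Among chromatin and transcription genes, Sap30l stood at 41.1 CPM on the infarcted side and 29.9 CPM on the non-infarcted side, against 94.0 CPM in naive and 18.1 to 50.2 CPM in the other PT libraries, and fell by 1.40 (SE 0.184, limma adjusted p = 0.00733). Purb, a protein that binds purine-rich DNA, stood at 118 CPM (infarcted) and 91.4 CPM (non-infarcted), against 251 CPM in naive, and fell by 1.26 (limma adjusted p = 0.00474). Its relative Purg fell by 0.79. Tada2b, an adaptor of the SAGA histone acetyltransferase complex, fell by 1.18, Kdm1a, a histone H3 demethylase, by 0.90, Mbd2, which reads methylated DNA, by 0.86, and Hira, a chaperone of histone H3.3, by 0.76. Ski, a repressor of TGF-beta signalling, fell by 0.97 and Srf, the serum response factor, by 0.75. In each of these, the infarcted and the non-infarcted side lay on the same side of naive, and in all but Hira and Srf naive was the highest library of the series.

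Among signalling genes, Dyrk2, Hipk1 and Clk2, kinases of related families, fell by 1.21, 1.15 and 1.16. Dyrk2 stood at 43.0 CPM on the infarcted side and 36.9 CPM on the non-infarcted side, against 93.5 CPM in naive (limma adjusted p = 0.00201). Clk2 phosphorylates SR splicing factors, and it was the 1 member called of the 15 tested in the list of SR proteins and CLK kinases, whose median was 0.03 (infarcted) and 0.02 (non-infarcted). Git1, a scaffold of small GTPase signalling at synapses, stood at 167 CPM (infarcted) and 133 CPM (non-infarcted), against 337 CPM in naive, and fell by 1.17 (limma adjusted p = 0.00474). Adcy1, the calcium-activated adenylyl cyclase of hippocampal plasticity, fell by 0.84, Wwc1, which encodes the memory-linked protein KIBRA, by 0.87, Tnk2, a tyrosine kinase, by 0.91, and Ksr1, a scaffold of the ERK pathway, by 0.57. Of the ubiquitin and traffic genes, Ube2q1 stood at 67.6 CPM (infarcted) and 66.9 CPM (non-infarcted), against 158 CPM in naive, and fell by 1.22 (SE 0.116, limma adjusted p = 0.00201). Ubqln4, a shuttle to the proteasome, fell by 0.98, Chmp4b, of the ESCRT-III membrane scission complex, by 0.94, and Vps54, of the GARP tethering complex, by 0.95. Mosmo, a modulator of Hedgehog signalling, fell by 1.21. Septin3, a neuronal septin of the cytoskeleton, was the most abundant of those shown: 319 CPM on the infarcted side and 260 CPM on the non-infarcted side, against 584 CPM in naive, a fall of 1.02 (limma adjusted p = 0.00474). Pabpn1, the nuclear poly(A)-binding protein, fell by 1.13 and Insyn1, a protein of inhibitory synapses, by 0.84. In 40 of the 50 called genes the non-infarcted side was lower than the infarcted side, and in the other 10 the infarcted side was. Of all 16057 tested genes, 9111 were higher on the infarcted than on the non-infarcted side. Zfp91 has 2 entries with identical reads, and Terf2 and Mir7075 overlap with nearly the same reads, so each counts double among the 50.

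**Figure D3:**
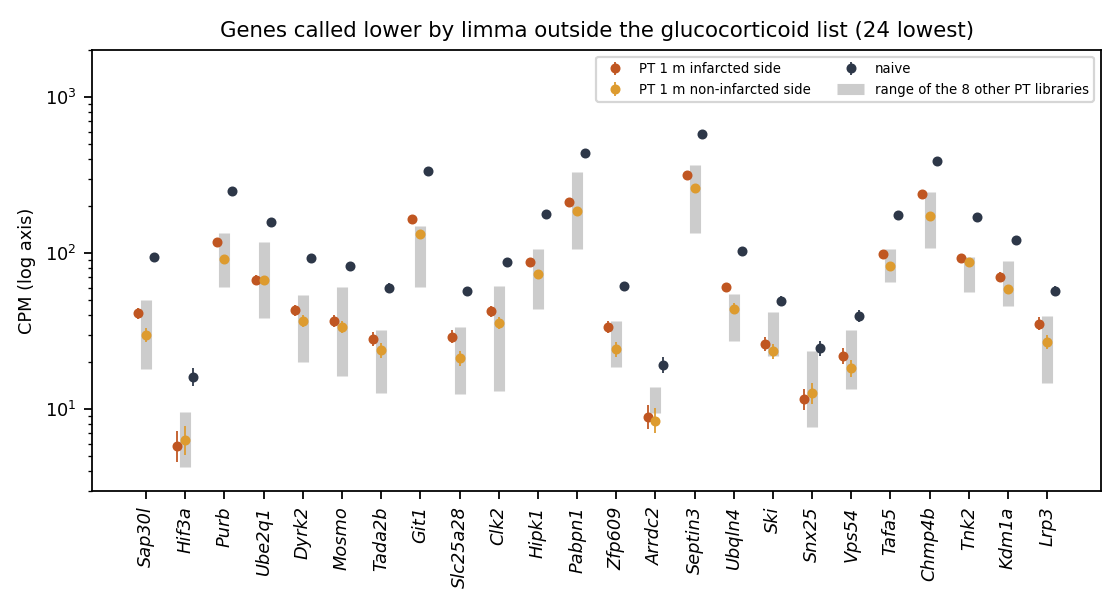
CPM on a log axis of the 24 genes with the lowest limma log2 difference among those called lower outside the glucocorticoid list, on the infarcted side, the non-infarcted side and in naive, with exact Poisson 95% intervals and grey bars for the range of the other 8 PT libraries. Naive is the highest point for each gene.

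How firm the calls are depends on the libraries. With the non-infarcted-side library alone, 40 of the 52 genes were still called, and with the infarcted-side library alone 17. The 15 genes called both ways were Plin4, Sgk1, Hif3a, Sap30l, Purb, Ube2q1, Dyrk2, Mosmo, Git1, Septin3, Ubqln4, Wwc1, Adcy1, Insyn1 and Mir9-3. Cdkn1a and Tsc22d3 were not among them: with the infarcted-side library alone their limma adjusted p was 0.0925 and 0.0581. With naive, PT 1 m and PT 1 m LEV libraries alone, all 52 were called among 145. Without the filter on low values limma called 0 genes, with 1765 at an unadjusted p under 0.05 and a lowest adjusted p of 0.0931, while edgeR and DESeq2 with the filter called 66 and 141.

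Of the 2 genes called higher, Mir9-3 was the 1 past a log2 difference of 1 on both sides. It is 1 of 3 mouse loci of the microRNA miR-9, which is made in the brain and acts in neural progenitors and neurons. The mature products, from RefSeq (GRCm38.p6), are shown with their seed (bases 2 to 8, the part that pairs with target RNAs) in capitals, and both are identical from all 3 loci.
mmu-miR-9-5p: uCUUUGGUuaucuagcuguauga
mmu-miR-9-3p: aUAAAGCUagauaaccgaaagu

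The Mir9-3 entry (chromosome 7, 79505264 to 79505353, plus strand) lies inside the long noncoding RNA gene Mir9-3hg on the same strand. It stood at 12.9 CPM on the infarcted side (11.1 to 15.0) and 12.8 CPM on the non-infarcted side (11.03 to 14.9), against 3.28 CPM in naive (2.40 to 4.38), and rose by 1.70 on the log2 scale (SE 0.187, limma adjusted p = 0.00368). In PT 1 m with LEV it stood at 10.7 CPM on the infarcted side and 10.9 CPM on the non-infarcted side, and in the 6 libraries of the other PT conditions at 1.96 to 3.68 CPM. The high level was thus seen in the 4 libraries of 1 m and in no other. Its host Mir9-3hg stood at 44.0 CPM (infarcted) and 42.2 CPM (non-infarcted), against 38.9 CPM in naive (limma adjusted p = 0.833). Mir9-2 stood at 3.29 CPM (infarcted) and 4.23 CPM (non-infarcted), against 3.50 CPM in naive, and Mir9-1 at 0.97 CPM (infarcted) and 1.79 CPM (non-infarcted), against 1.57 CPM in naive, and neither passed. These are CAGE reads that start in the entry, not amounts of the mature microRNA, and the rule by which reads were divided between the entry and its host is not stated in the labels. The other gene, Wdr13, a WD-repeat protein, stood at 188 CPM on the infarcted side and 167 CPM on the non-infarcted side, against 124 CPM in naive. It rose by 0.51 (limma adjusted p = 0.0337), and naive was the lowest of the 11 libraries. EdgeR did not call Wdr13 (adjusted p = 0.0502).

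On the infarcted side alone, 9 genes stood higher than naive, at a median level of 3.19 CPM over the 3 libraries, and limma called 0 of them. The sides are the spread in that fit, so a gene chosen for differing between them can hardly be called. This holds for every class limited to one side, and their counts of 0 called are not a result about the genes. For all 9 the counting interval of the ratio between the sides lay above 1, which covers counting error only. The rule that chose the 9 already set the infarcted side above the other, so this is a description and not support. Genes with a mean under 5 CPM among those limited to one side were named after their values were seen. Lcn2, lipocalin 2, an iron-carrier protein made by reactive astrocytes (chromosome 2, 32384633 to 32388252), stood at 7.70 CPM on the infarcted side (6.28 to 9.33) and 1.15 CPM on the non-infarcted side (0.656 to 1.86), against 0.714 CPM in naive (0.342 to 1.31). In the other PT libraries it was highest on the infarcted side at 7 d, at 13.1 CPM, and lowest at 0.760 CPM. Lbhd2 (chromosome 12, 111406809 to 111412090) stood at 9.94 CPM on the infarcted side, 1.65 CPM on the non-infarcted side and 1.64 CPM in naive. The other 8 PT libraries held 3.30 to 6.76 CPM, so here the non-infarcted PT 1 m library and naive were the low ones. Glp1r, the receptor of the gut peptide GLP-1, stood at 8.82 CPM on the infarcted side, 3.87 CPM on the non-infarcted side and 3.36 CPM in naive, and Arhgap32, a GTPase-activating protein, at 30.9 CPM on the infarcted side, 19.7 CPM on the non-infarcted side and 14.4 CPM in naive. Low genes of this set were Col6a3, a collagen VI chain (3.21 CPM infarcted, 0.646 CPM non-infarcted, 0.714 CPM naive), Klk6, a protease of oligodendrocytes (2.47 CPM infarcted, 1.15 CPM non-infarcted, 0.643 CPM naive), Scnn1a, a sodium channel subunit (5.01 CPM infarcted, 2.65 CPM non-infarcted, 1.79 CPM naive), and the histone gene H4c12 (4.41 CPM infarcted, 2.22 CPM non-infarcted, 1.43 CPM naive).

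Of the 19 genes lower on the infarcted side alone, 2 were choroid plexus genes (Igfbp2, a binding protein of insulin-like growth factors, and Ooep), and limma called 0. The median level over the 3 libraries was 2.11 CPM. Msx1, a homeobox transcription factor, stood at 7.55 CPM on the infarcted side (ratio of infarcted to non-infarcted 0.452, counting interval 0.354 to 0.573) and 16.7 CPM on the non-infarcted side, against 22.3 CPM in naive and 5.81 to 28.7 CPM elsewhere. The rule that chose Msx1 used both sides, so its ratio and interval are a description. Cox6b2, a cytochrome c oxidase subunit, stood at 5.90 CPM (infarcted), 10.5 CPM (non-infarcted) and 13.5 CPM (naive), Dact1, an antagonist of Wnt signalling, at 3.21 CPM (infarcted), 5.09 CPM (non-infarcted) and 7.43 CPM (naive), and Klhdc7a at differences of -1.05 on the infarcted and -0.28 on the non-infarcted side, with the same reads in the entry Mir2139. For each of these 4 genes the non-infarcted side stood between the infarcted side and naive. Msx1 followed the mean of the choroid plexus list over the 8 other PT libraries (Pearson r 0.923). It just missed the other condition for being set apart, at 12.6 CPM (infarcted) and 5.81 CPM (non-infarcted) in PT 1 m LEV. Cdkn1c, Gnmt and Sema3b, also among the 19, had r of 0.960, 0.887 and 0.879. High r was also found for Gm29538 (0.963), Tjp3 (0.927), Angptl2 (0.887), Scube3 (0.842) and Rab20 (0.828). Cox6b2, Dact1 and Klhdc7a had r of 0.559, -0.134 and 0.520, and Gm43316, Gm16066, Egfl6 and Npb had r from -0.38 to -0.18. The part of plexus content in the 19 genes was not tested. With the sides exchanged, the 8 genes higher on the non-infarcted side alone included genes known from the leptomeninges, the membranes around the brain, and limma called 0 of the 8. Ptgds, the prostaglandin D synthase of meninges and choroid plexus, stood at 1523 CPM on the infarcted side and 4027 CPM on the non-infarcted side, against 1713 CPM in naive. Crabp2, a retinoic acid-binding protein gene of meningeal fibroblasts, stood at 2.76 CPM on the infarcted side and 7.39 CPM on the non-infarcted side, against 3.07 CPM in naive. Slc47a1, a transporter of organic cations, stood at 2.02 CPM (infarcted) and 5.45 CPM (non-infarcted), against 1.79 CPM in naive. The list of pericytes, smooth muscle and meningeal fibroblasts, with 20 of 20 members tested and 0 called, had a median of -0.11 on the infarcted and 0.42 on the non-infarcted side. Its summed level was 267 CPM on the infarcted side and 382 CPM on the non-infarcted side, against 292 CPM in naive and 250 to 566 CPM elsewhere. Sel1l3, 1 of the 2 genes lower on the non-infarcted side alone, stood at 31.5 CPM (infarcted) and 20.9 CPM (non-infarcted), against 43.7 CPM in naive.

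**Figure D4:**
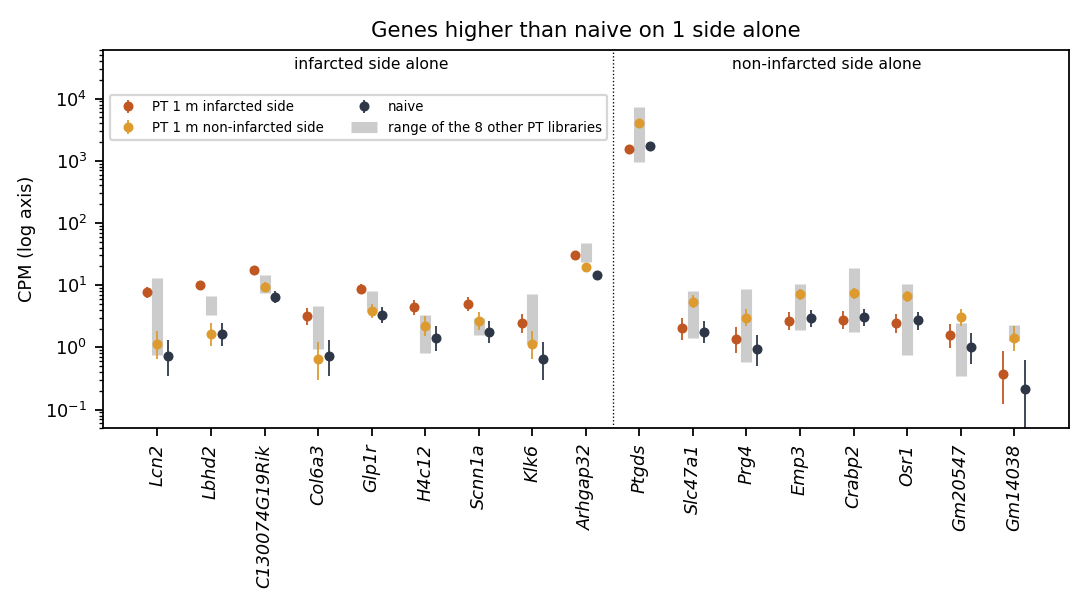
CPM on a log axis of the 9 genes higher than naive on the infarcted side alone and the 8 higher on the non-infarcted side alone, in the infarcted, non-infarcted and naive libraries, with exact Poisson 95% intervals and grey bars for the range of the other 8 PT libraries. Most of these genes lie under 10 CPM, while Ptgds reaches 4027 CPM on the non-infarcted side.

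Choroid plexus genes were set apart. They were 43 genes: the 20 of a marker list, and 23 that followed its mean over the 8 other PT libraries (Pearson r of at least 0.8) and stood at least 1 higher on the infarcted than on the non-infarcted side in PT 1 m LEV, a pair of libraries outside this comparison. All 43 were lower on the infarcted than on the non-infarcted side of PT 1 m, the opposite of the direction in the pair that chose 23 of them. Their median difference from naive was -2.11 on the infarcted and -0.89 on the non-infarcted side. Ttr, transthyretin, the carrier of thyroid hormone in cerebrospinal fluid, stood at 36.2 CPM on the infarcted side and 1372 CPM on the non-infarcted side, against 4027 CPM in naive and 80.7 to 4652 CPM in the other PT libraries. The infarcted-side PT 1 m library was thus the lowest of the series for Ttr. Enpp2, autotaxin, stood at 62.2 CPM (infarcted) and 135 CPM (non-infarcted), against 291 CPM in naive. Ecrg4 stood at 8.07 CPM (infarcted) and 36.2 CPM (non-infarcted), against 81.4 CPM in naive, Clic6, a chloride channel protein, at 3.36 CPM (infarcted) and 12.6 CPM (non-infarcted), against 41.8 CPM in naive, and Folr1, the folate receptor of the plexus, at 0.971 CPM (infarcted) and 7.89 CPM (non-infarcted), against 21.9 CPM in naive. Kl, which encodes klotho, stood at 11.7 CPM (infarcted) and 22.8 CPM (non-infarcted), against 38.6 CPM in naive. Of the list's 20 members, 19 were lower than naive by at least 0.5 on both sides, where 1.76% of all tested genes were. Slc5a5, the iodide transporter, was the exception at -0.12 (infarcted) and 0.56 (non-infarcted). None of the 20 was at 0 in a PT 1 m library, though 5 had 3 or fewer reads on the infarcted side. The list's summed level was 134 CPM on the infarcted side and 1636 CPM on the non-infarcted side, against 4622 CPM in naive and 184 to 5493 CPM elsewhere. Limma called 0 of the 43, but their differences between sides are part of its spread, so a call was unlikely in advance. For Cldn1, Col8a1 and Lbp, named after their values were seen, the counting interval of the ratio between the sides included 1. Calml4, Cox8b and Drc7, which the rule did not set apart, lay in the same order of libraries, with Cox8b at 2.17 CPM (infarcted) and 16.4 CPM (non-infarcted), against 41.3 CPM in naive. How much plexus tissue came with each hippocampus was not measured.

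Ependymal genes, of the ciliated cells that line the ventricle, had a median of -0.48 on the infarcted and -0.44 on the non-infarcted side. Of these, 11 of 14 lay below naive on both sides, where 32.9% of all tested genes did, and 0 were called. Foxj1, the master transcription factor of motile cilia, stood at 5.90 CPM (infarcted) and 5.45 CPM (non-infarcted), against 9.85 CPM in naive. The ependymal list had a summed level of 78.5 CPM on the infarcted side and 74.96 CPM on the non-infarcted side, against 108 CPM in naive.

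**Figure D5:**
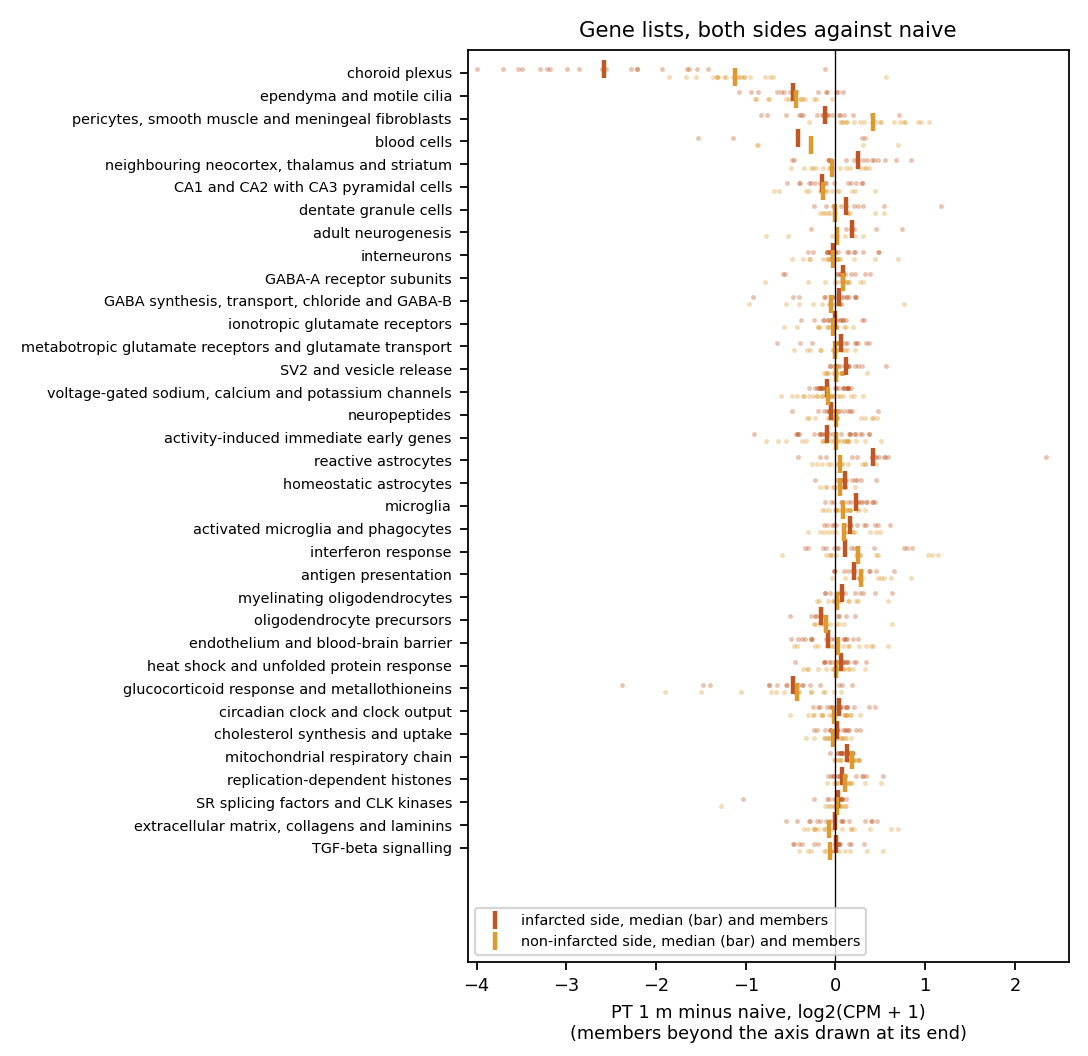
Log2(CPM + 1) differences from naive of the members (points) and the median (bar) of 35 gene lists, with the infarcted side above the non-infarcted side in each row and with values beyond the axis drawn at its ends. Medians of the choroid plexus, ependymal and glucocorticoid lists lie furthest below 0, and that of reactive astrocytes lies at 0.42 on the infarcted and 0.05 on the non-infarcted side.

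No gene of the astrocyte, microglia or oligodendrocyte lists passed limma, and the lists differed in direction. The reactive astrocyte list had a median of 0.42 on the infarcted and 0.05 on the non-infarcted side. Of its genes, 11 of 14 were higher on the infarcted than on the non-infarcted side, where 9111 of the 16057 tested genes were. The intermediate filament gene Gfap of astrocytes was at 405 CPM on the infarcted side and 282 CPM on the non-infarcted side, against 277 CPM in naive and 253 to 678 CPM elsewhere (limma adjusted p = 0.911). C4b, a complement protein, stood at 45.6 CPM (infarcted) and 33.9 CPM (non-infarcted), against 32.3 CPM in naive, and Vim, vimentin, at 30.0 CPM (infarcted) and 22.9 CPM (non-infarcted), against 22.4 CPM in naive. The microglia list had a median of 0.23 on the infarcted and 0.09 on the non-infarcted side. Of its 18 genes, 12 lay above naive on both sides, where 5820 of the 16057 tested genes did, and 15 were higher on the infarcted than on the non-infarcted side. Its summed level was 866 CPM on the infarcted side and 783 CPM on the non-infarcted side, against 726 CPM in naive and 731 to 1708 CPM elsewhere, so that PT 1 m lay at the low end of the PT libraries. Tyrobp, a signalling adaptor of microglia, stood at 66.4 CPM (infarcted) and 59.3 CPM (non-infarcted), against 49.5 CPM in naive. Among genes of activated phagocytes, whose median was 0.16 (infarcted) and 0.10 (non-infarcted), Lyz2 stood at 11.5 CPM (infarcted) and 10.6 CPM (non-infarcted), against 7.21 CPM in naive, and Spp1, osteopontin, at 3.66 CPM (infarcted) and 5.52 CPM (non-infarcted), against 3.78 CPM in naive.

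The interferon response differed in order, with a median of 0.10 on the infarcted and 0.25 on the non-infarcted side. Of its genes, 3 of 14 were higher on the infarcted than on the non-infarcted side, where 9111 of the 16057 tested genes were. Genes higher by at least 0.5 on both sides were 3 of the 14, where 0.442% of all tested genes were. Ifi27l2a stood at 16.2 CPM on the infarcted side and 20.9 CPM on the non-infarcted side, against 8.93 CPM in naive. Isg15, a ubiquitin-like protein, stood at 6.13 CPM (infarcted) and 7.60 CPM (non-infarcted), against 3.21 CPM in naive, and Ifit3 at 2.99 CPM (infarcted) and 3.66 CPM (non-infarcted), against 1.21 CPM in naive. None passed (limma adjusted p from 0.557 to 0.838), and the other PT libraries reached 49.1 CPM for Ifi27l2a. Antigen presentation genes had a median of 0.20 (infarcted) and 0.29 (non-infarcted), and Psmb8, an immunoproteasome subunit, stood at 14.2 CPM (infarcted) and 12.7 CPM (non-infarcted), against 8.64 CPM in naive. Myelin genes had a median of 0.07 (infarcted) and 0.02 (non-infarcted) and oligodendrocyte precursor genes -0.16 (infarcted) and -0.11 (non-infarcted). Aspa, the aspartoacylase of oligodendrocytes, stood at 18.2 CPM (infarcted) and 17.6 CPM (non-infarcted), against 11.4 CPM in naive (limma adjusted p = 0.219).

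Neuronal lists lay near naive, with 0 genes called in those of GABA, glutamate, vesicle release, ion channels, neuropeptides and immediate early genes. GABA-A receptors are the chloride channels behind fast inhibition, and their 13 tested subunit genes had a median of 0.08 on both sides. Of the 13, 9 lay above naive on both sides and 2 below, with 1 lower by at least 0.5 on both sides. Their summed level was 1024 CPM on the infarcted side and 974 CPM on the non-infarcted side, against 1070 CPM in naive. Gabrd, the delta subunit of extrasynaptic receptors, stood at 27.2 CPM (infarcted) and 25.04 CPM (non-infarcted), against 20.6 CPM in naive. Gabra5 and Gabra2, subunits abundant in the hippocampus, stood at 242 and 80.9 CPM on the infarcted side and 227 and 70.5 CPM on the non-infarcted side, against 228 and 76.3 CPM in naive. Slc12a2, the chloride importer NKCC1, which also occurs in choroid plexus, stood at 28.3 CPM (infarcted) and 27.3 CPM (non-infarcted), against 54.4 CPM in naive and 20.6 to 52.9 CPM elsewhere (limma adjusted p = 0.126). Its activating kinase gene Stk39 stood at 59.0 CPM (infarcted) and 62.0 CPM (non-infarcted), against 82.2 CPM in naive. Sv2a, which encodes the vesicle protein bound by LEV, stood at 156 CPM (infarcted) and 140 CPM (non-infarcted), against 134 CPM in naive (limma adjusted p = 0.847).

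Cnr1, the cannabinoid receptor of interneurons, did not pass, at 97.7 CPM on the infarcted side and 113 CPM on the non-infarcted side, against 69.3 CPM in naive (limma adjusted p = 0.0649), and naive was under the other 8 PT libraries as well (98.9 to 288 CPM). Pvalb, parvalbumin of fast-spiking cells, stood at 53.7 CPM (infarcted) and 73.7 CPM (non-infarcted), against 54.0 CPM in naive. Among glutamate genes, Grid1, a delta-type receptor, stood at 67.7 CPM (infarcted) and 59.2 CPM (non-infarcted), against 88.5 CPM in naive. The immediate early genes, switched on by neuronal firing, had a median of -0.09 on the infarcted and 0.00 on the non-infarcted side. Homer1 stood at 80.3 CPM (infarcted) and 68.4 CPM (non-infarcted), against 107 CPM in naive (limma adjusted p = 0.0915), and Nr4a1 at 37.3 CPM (infarcted) and 38.7 CPM (non-infarcted), against 50.4 CPM in naive, while Fos stood at 3.21 CPM (infarcted) and 3.08 CPM (non-infarcted), against 2.499 CPM in naive. Of the potassium channels, Kcnq5 and Kcnq3 of the M current gave mean differences of -0.35 and -0.30.

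By region, genes of CA pyramidal cells had a median of -0.15 on the infarcted and -0.13 on the non-infarcted side, and dentate granule cell genes 0.11 (infarcted) and -0.00 (non-infarcted). Pou3f1, a POU-domain transcription factor of CA1, stood at 63.8 CPM (infarcted) and 59.8 CPM (non-infarcted), against 93.4 CPM in naive and 36.6 to 72.3 CPM elsewhere (limma adjusted p = 0.129), and Trpc6, a cation channel of granule cells, at 25.5 CPM (infarcted) and 25.3 CPM (non-infarcted), against 17.1 CPM in naive (limma adjusted p = 0.0915). Markers of neighbouring neocortex, thalamus and striatum had a median of 0.25 on the infarcted and -0.04 on the non-infarcted side. Of these markers, 13 of 17 were higher on the infarcted than on the non-infarcted side, where 9111 of the 16057 tested genes were. Their summed level was 430.5 CPM on the infarcted side and 393 CPM on the non-infarcted side, against 426 CPM in naive. Their part in the genes higher on the infarcted side was not tested. Respiratory chain genes of mitochondria gave medians of 0.12 (infarcted) and 0.19 (non-infarcted). Of these, 20 of 23 lay above naive on both sides, where 36.2% of all tested genes did. However, 0 passed and the largest mean difference was 0.22 for Uqcrh. Lists of cholesterol synthesis, heat shock, TGF-beta signalling, extracellular matrix and endothelium had medians within 0.1 of naive on both sides, and 0 genes called.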

How the data were processed

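CPM values per gene were deposited by the authors for each of the 11 libraries, as counts relative to all reads of that library. The read totals used here were recovered from the spacing of these CPM values. Per the submitters' processing notes, the names BWA 0.7.17, HISAT2 2.0.5, DESeq2 1.20.0 and GRCm38 were recorded, without their roles. The annotation, the rule for assigning reads to genes and the treatment of duplicate reads are not stated in the labels. From the deposited CPM, whole reads were recovered for 100% of values within a tolerance of 0.0001. Samples were grouped by their labels. Columns of another series numbered 0. Coordinates came from GENCODE M21 and sequences from RefSeq (GRCm38.p6).

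Differences are of log2(CPM + 1), with genes of a mean of at least 1 CPM kept. The test was limma 3.58.1 (R 4.3.3) with Benjamini-Hochberg adjustment over all 16057 genes, tested on simulated data. EdgeR 4.0.16 (66 genes called) and DESeq2 1.42.0 on the recovered reads were alternatives, as were pseudocounts of 0.25 and 5, TMM, no filter, fewer conditions, each PT 1 m library left out, and the choroid plexus genes left out. Intervals are 95% exact Poisson and cover counting error only. Genes were named by rule: in each class of the fold rule those with a mean of at least 5 CPM over the 3 libraries, by size of the difference, with up to 4 of each of 35 gene lists (557 of 595 entries tested), 6 choroid plexus genes, Gfap, Sv2a and the GABA-A subunits, 165 in all, of which not all are reported here. Other genes named were chosen after their values were seen. The comparison, the genes and the lists were chosen with earlier results of these data known.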

Additional observations from a re-analysis of the deposited data

How the results depend on the processing

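Of the 165 genes named by rule, 12 moved beyond their counting interval with a pseudocount of 5, 1 with 0.25, and 0 under 3 other scalings, which shift all genes nearly alike. Pseudocounts cannot turn a sign, so kept signs show nothing there. Genes lower on both sides (41) numbered 70 with a pseudocount of 0.25, 18 with 5, 189 at a 1.5-fold threshold and 23 without choroid plexus genes, and 72 to 111 when either side was taken alone. Genes higher on both sides (1) numbered 15 with a pseudocount of 0.25, 39 at 1.5-fold, and 13 to 16 with either side alone. Genes higher on the infarcted side alone (9) numbered 19 with a pseudocount of 0.25, 2 with 5, 3 at a mean of at least 5 CPM and 146 at 1.5-fold, and those lower there (19) numbered 41, 1, 6 and 151 under the same settings. Limma's 52 calls became 141 with DESeq2, 0 without the low-value filter, 145 with naive, PT 1 m and PT 1 m LEV alone, and 18 to 68 without either PT 1 m library, the lower count being without the non-infarcted side. Apart from the filter and the fewer libraries, the cause was not tested. With 1 naive library, a deviation of that library cannot be told apart from a change after PT, and genes of a few CPM rest on few reads. No paired analysis was possible because each group had 1 library.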
